A study of Homo sapiens with 6 samples.

Results

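The 10 box C/D small nucleolar RNAs (snoRNAs) with the most reads in libraries of newly made small RNA 3′ ends are described here: SNORD10, SNORD17, SNORD88A, SNORD88C, SNORD22, SNORD83A, SNORD83B, SNORD94, SNORD67 and SNORD33. They were chosen by their total reads over 6 libraries from the 19 C/D snoRNAs of a table of 142 small RNAs, after the independently transcribed U3, U13 and U8 (SNORD3, SNORD13 and SNORD118) had been set aside. Totals ran from 3510 reads for SNORD10 to 183 for SNORD33. The next C/D snoRNA, SNORD55, had 114 and was left out. These totals are how the RNAs were picked and are no finding.

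The cell line was HEK 293T-REx TOE1-degron, derived from human embryonic kidney cells, in which TOE1 can be degraded on demand. Of the 6, 3 were labelled TOE1+ and 3 TOE1-, here called TOE1-present and TOE1-depleted. Depletion was by 600 µM indole-3-acetic acid (auxin) for 8 hours, and all cells took up 0.2 mM ethynyl uridine for 8 hours, which marks newly made RNA for capture. Whether the TOE1-present cells received a vehicle, and whether the line is 1 clone, is not given in the sources used here. A gel slice of 100 to 500 nt was taken, so that RNAs near the lower bound lie at the edge of the sampled sizes. Adaptor AG11 was used for replicates 2 and 3 of the TOE1-depleted group, and AG10 for the remaining 4 libraries. Nothing in the labels says that replicates were grown apart, so each p reflects library-to-library spread that could be technical only.

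C/D snoRNAs are short RNAs that hold 2 conserved motifs, box C near the 5′ end and box D near the 3′ end. Together with fibrillarin and its partner proteins they guide 2′-O-methylation of other RNAs. In human cells most are cut out of introns: after splicing and debranching of the lariat, exonucleases trim both sides until the bound proteins stop them. TOE1 is a 3′ exonuclease, also known as CAF1Z, best known for trimming the 3′ ends of small nuclear RNAs. Of the 10, SNORD10, SNORD67 and SNORD94 guide methylation of U6 snRNA, SNORD17 guides 28S rRNA and SNORD33 guides 18S rRNA.

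The first property that the choice did not use was where these RNAs end relative to box D. On hg38, with GENCODE 44 gene models, the letters CTGA of box D were found in the last 20 nt of all 10 genes. The same window held CTGA in 9 of the other 9 C/D snoRNAs of the table and in 7.94% of 214 H/ACA snoRNA gene models. A box C of 7 letters, ATGATGA or GTGATGA, was found in the first 30 nt of 5 of the 10, of 5 of the other 9 C/D snoRNAs and of 0 of the 214 H/ACA models. Searches were of the RNA strand only, and the motifs did not overlap. The last 20 nt of each gene and the next 20 nt of the genome are shown, with box D in capitals, because the 3′ end is what the assay reads.
SNORD10: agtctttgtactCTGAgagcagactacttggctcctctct
SNORD17: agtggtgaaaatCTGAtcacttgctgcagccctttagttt
SNORD88A: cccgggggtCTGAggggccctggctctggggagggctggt
SNORD88C: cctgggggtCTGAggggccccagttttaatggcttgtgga
SNORD22: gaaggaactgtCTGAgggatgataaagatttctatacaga
SNORD83A: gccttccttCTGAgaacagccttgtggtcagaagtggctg
SNORD83B: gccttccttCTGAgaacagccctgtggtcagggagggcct
SNORD94: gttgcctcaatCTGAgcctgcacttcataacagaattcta
SNORD67: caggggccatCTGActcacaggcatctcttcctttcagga
SNORD33: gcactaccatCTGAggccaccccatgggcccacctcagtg

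The annotated genes end 4 to 7 nt after box D, and the reads did not follow that spread. The authors' deposited table gives the median 3′ end in TOE1-present cells relative to a position 0, which was read here as the last annotated base. That median was at 1 nt for SNORD10, at 0 for SNORD22 and SNORD94, at −1 for SNORD17, SNORD67 and SNORD33, and at −2 for SNORD88A, SNORD88C, SNORD83A and SNORD83B. Counted from the last base of box D instead, it lay 5 nt downstream in 9 of the 10 snoRNAs, whereas the annotated end did so in 2. SNORD17 was the exception, at 3 nt. Among the other 9 C/D snoRNAs, which had 23 to 114 reads each, the median end lay 2 to 6 nt after box D and at 5 nt in 4. These distances hold only if position 0 is the last base of the GENCODE 44 model. The annotation behind position 0 is not given in the sources used here, and gene models other than these would shift each distance separately, which was not tested. The header does not say whether the untemplated tail is counted in this position.

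**Figure D1:**
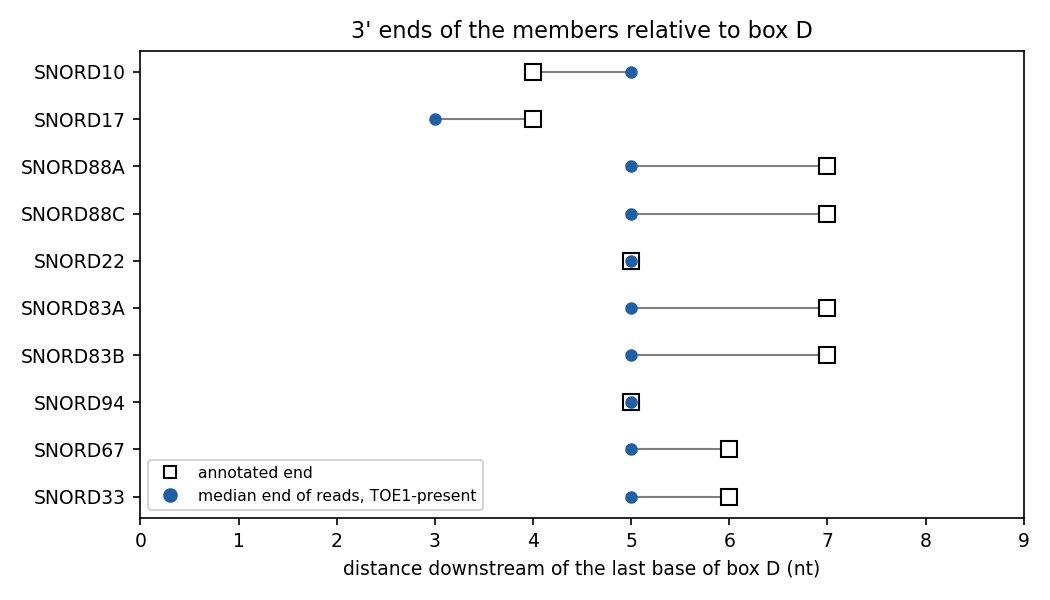
Distance in nt downstream of the last base of box D (x axis) of the annotated 3′ end (open squares) and of the median 3′ end of reads in TOE1-present cells (filled circles) for each of the 10 snoRNAs. The squares spread from 4 to 7 nt, and the circles sit at 5 nt for 9 snoRNAs and at 3 nt for SNORD17.

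The mean end lay downstream of the median in 8 of the 10, by differing amounts. The authors' deposited table has means of −1.57 nt for SNORD88A, −1.14 nt for SNORD88C, −1.26 nt for SNORD83B and 0.20 nt for SNORD22, each within 1 nt of its median. SNORD17, with a mean of −0.0042 nt, and SNORD94, with a mean of 0.997 nt, lay almost 1 nt downstream of their medians in the authors' deposited table. For SNORD83A and SNORD33 the gap was wider, with means of 1.74 and 1.13 nt in the authors' deposited table against medians of −2 and −1. SNORD10, at 0.52 nt, and SNORD67, at −1.14 nt, were the 2 with a mean upstream of the median. All positions are within the window of −10 to 50 nt that the table uses.

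The 10 genes lie in introns on the strand of their host. SNORD10 is at chr17:7576811-7576952 on the plus strand (142 nt), in intron 5 of EIF4A1, an RNA helicase gene of translation initiation. SNORD17, the longest at 237 nt, is at chr20:17962710-17962946 on the minus strand in intron 1 of SNX5, a sorting nexin gene. SNORD22 is at chr11:62852910-62853035, minus strand, 126 nt, in intron 9 of the noncoding host SNHG1. SNORD94 is at chr2:86135870-86136006, plus strand, 137 nt, in intron 21 of PTCD3, a gene of a mitochondrial ribosome protein. SNORD67 is at chr11:46762389-46762499, minus strand, 111 nt, in intron 31 of CKAP5, a microtubule regulator. SNORD33 is at chr19:49490615-49490699, plus strand, 85 nt, in intron 4 of the ribosomal protein gene RPL13A. The distance from the annotated 3′ end to the next exon of the canonical host transcript was 70 nt for SNORD22, 79 nt for SNORD33 and 103 nt for SNORD10, and 5672 nt for SNORD17.

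Of the 10, 2 pairs share a host and a sequence family. SNORD83A at chr22:39315213-39315307 (95 nt) and SNORD83B at chr22:39313819-39313911 (93 nt) lie on the minus strand in introns 5 and 7 of RPL3, a ribosomal protein gene, and were identical at 75 of 95 aligned positions (78.95%). SNORD88A at chr19:50799442-50799532 and SNORD88C at chr19:50802328-50802418, each 91 nt and on the minus strand within C19orf48P, were identical at 80 of 91 positions (87.9%), with 11 substitutions and no gap. A further copy, SNORD88B, is 91.2% identical to SNORD88A and had no row in the table. How reads that fit several copies were counted is not given in the sources used here, so the values of SNORD88A and SNORD88C are uncertain to that extent. The same holds for SNORD83A and SNORD83B where a read covers only a stretch that both share. The whole genes of the pairs are shown, because copies this alike can be hard to tell apart in short reads, with box D and, in SNORD83B, a box C of the searched letters in capitals.
SNORD83A: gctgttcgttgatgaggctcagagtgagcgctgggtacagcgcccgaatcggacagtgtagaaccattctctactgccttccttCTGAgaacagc
SNORD83B: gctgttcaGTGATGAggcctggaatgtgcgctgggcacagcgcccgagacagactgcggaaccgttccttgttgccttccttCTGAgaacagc
SNORD88A: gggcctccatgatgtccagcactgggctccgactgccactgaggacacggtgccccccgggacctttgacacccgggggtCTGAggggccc
SNORD88C: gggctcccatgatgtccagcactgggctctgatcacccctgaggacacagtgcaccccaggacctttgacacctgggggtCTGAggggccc

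The last 20 nt are the same in SNORD83A and SNORD83B. Between SNORD88A and SNORD88C the substitutions, counted from 1 at the 5′ end with the base of SNORD88A first, end with C74T, upstream of box D.

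The libraries held 34581 to 57078 reads with TOE1 and 32813 to 75353 without it, of which the 7SL, 7SK, RNase MRP and U2 families took 64.3% to 72.0% and 59.9% to 69.6%. TOE1 itself was not measured in this table of small RNAs, so its loss was not checked here. Levels below are CPM, read counts scaled to a common library size, after TMM scaling, a normalisation meant to limit the weight of a few dominant RNAs. In bulk RNA, a change in the number of contributing cells and in RNA per cell cannot be told apart.

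The first comparison asked whether TOE1 depletion changed how many newly made reads each snoRNA gave. SNORD83A rose 2.33-fold and was the 1 snoRNA of the 10 that passed the threshold of an adjusted p under 0.05. Across all RNAs tested 7.92% were called, 4.95% higher and 2.97% lower (5 and 3 of 101), so 1 call among 10 is close to that background. Of the 10, 8 had a log2 change above 0 against 59.4% of all RNAs tested (60 of 101), and their median log2 change was 0.33 against 0.08 for all. Without TOE1-present replicate 2 that median was 0.157 against 0.030 for all, and with the adaptor in the model it was 0.155 against 0.103, with 6 of the 10 above 0. Calls are edgeR quasi-likelihood tests with Benjamini-Hochberg adjustment.

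SNORD83A had 16, 15 and 17 reads in the TOE1-present libraries and 90, 42 and 76 in the TOE1-depleted ones. These were 367, 453 and 562 CPM against 1283, 985 and 907. All TOE1-depleted values lay above all TOE1-present values. The log2 change was 1.22 ± 0.24 (SE, n = 3 per group; edgeR adjusted p = 0.0348). With the adaptor in the model, which leaves TOE1-depleted replicate 1 to carry the contrast, it was 1.50 (edgeR adjusted p = 0.0678). Without any 1 of the 6 libraries, each left out in turn, the call was lost while the log2 change stayed between 1.02 and 1.35 (edgeR adjusted p of 0.0742 to 0.117).

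Its neighbour in RPL3, SNORD83B, had 642, 242 and 430 CPM with TOE1 and 1112, 540 and 1265 without it. The groups overlapped, since TOE1-depleted replicate 2 lay below TOE1-present replicate 1. The log2 change of 1.15 ± 0.43 (SE, n = 3 per group) was close to that of SNORD83A in size but not called (edgeR adjusted p = 0.141). With the replicate number as a block, it was 1.13 and called (edgeR adjusted p = 0.0147).

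SNORD33, hosted by RPL13A, rested on 1 library. Its levels were 321, 514 and 265 CPM with TOE1 and 1283, 563 and 358 without it. Only TOE1-depleted replicate 1 stood clear of the TOE1-present range by a wide margin, with 90 of the 183 reads of this RNA. The log2 change was 1.01 ± 0.57 (SE, n = 3 per group; edgeR adjusted p = 0.336) and 0.26 without that library (edgeR adjusted p = 0.790).

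Among the guides of U6 methylation, SNORD94 and SNORD67 had values above 0, and SNORD10 lay near it. SNORD94 had 550, 393 and 298 CPM with TOE1 and 770, 563 and 788 without it, with no overlap. Its log2 change was 0.76 ± 0.28 (SE, n = 3 per group; edgeR adjusted p = 0.135). SNORD67 had 550, 363 and 628 against 585, 821 and 692, with overlap, and a log2 change of 0.43 ± 0.26 (edgeR adjusted p = 0.364).

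SNORD10, by far the most read of the 10, had the smallest change under TMM scaling. It had 10086, 11697 and 12366 CPM with TOE1 and 10166, 11379 and 13262 without it. The log2 change was 0.03 ± 0.18 (SE, n = 3 per group; 95% interval −0.40 to 0.46; edgeR adjusted p = 0.952). Scaled by library totals it was 0.60 (edgeR adjusted p = 0.277). SNORD10 made up 46.1% to 47.7% of the reads of the 10 in the TOE1-present libraries and 42.95% to 51.5% in the TOE1-depleted ones.

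SNORD17 and SNORD22 were the 2 with values below 0. SNORD17 had 5272, 6619 and 6745 CPM with TOE1 and 4206, 4364 and 3402 without it, every TOE1-depleted library below every TOE1-present one. Its log2 change of −0.64 ± 0.16 (SE, n = 3 per group) missed the threshold narrowly (edgeR adjusted p = 0.0508). It passed with the replicate block (−0.64, edgeR adjusted p = 0.0178), with DESeq2 (−0.73, DESeq2 adjusted p = 0.00419) and with TMM factors taken without the large families (−0.73, edgeR adjusted p = 0.0283). Those were the only passes, 3 of 13 alternatives. Scaled by library totals alone the log2 change of SNORD17 was −0.11 (edgeR adjusted p = 0.775), and with no filter on low counts −0.69 (edgeR adjusted p = 0.0634). With each library left out in turn it ran from −0.79 to −0.54 and was not called (edgeR adjusted p of 0.0918 to 0.164). With the adaptor in the model it was −0.56. SNORD22 had 1009, 1209 and 1124 against 841, 774 and 871, without overlap, and a log2 change of −0.41 ± 0.14 (edgeR adjusted p = 0.116) that turned to 0.12 under library-total scaling.

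Neither of the SNORD88 pair was called. SNORD88A had 1788, 1662 and 1918 CPM with TOE1 and 1782, 1947 and 2423 without it, a log2 change of 0.20 ± 0.14 (SE, n = 3 per group; edgeR adjusted p = 0.451). SNORD88C had 1284, 1360 and 1918 against 1640, 1853 and 1803, a log2 change of 0.23 ± 0.17 (edgeR adjusted p = 0.480). Both sets overlapped between the groups, and both 95% intervals included 0 (−0.14 to 0.55 and −0.18 to 0.63).

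**Figure D2:**
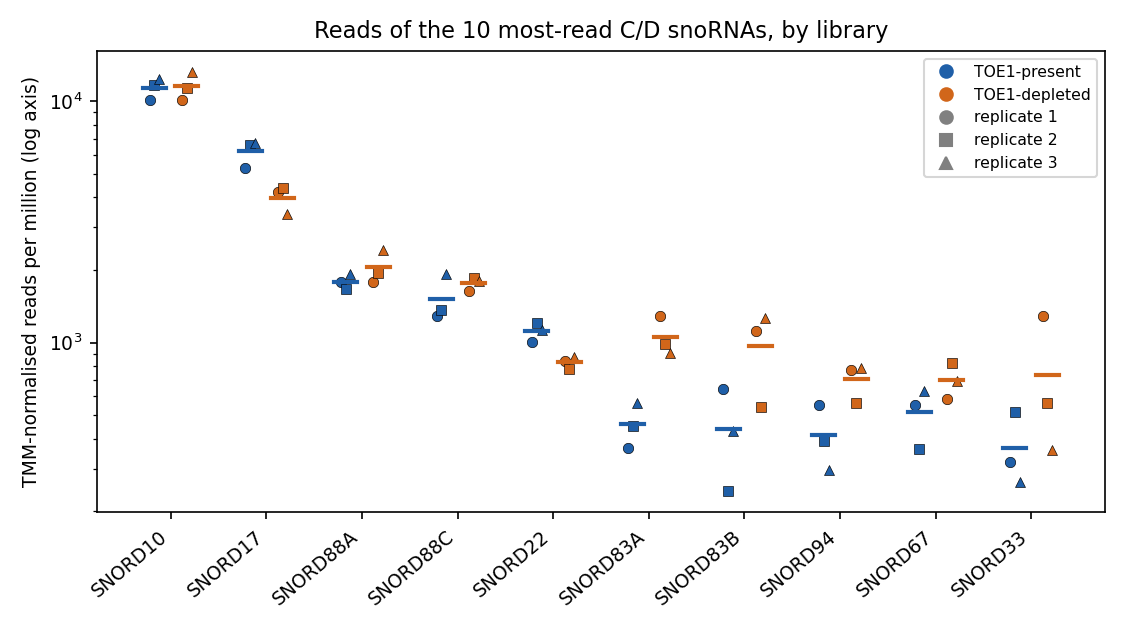
TMM-scaled CPM (log axis) of each of the 10 snoRNAs in the 3 TOE1-present and 3 TOE1-depleted libraries. Points are libraries with a shape for each replicate, and short lines are group means. SNORD83A, SNORD94, SNORD17 and SNORD22 are the 4 whose groups do not overlap.

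In all, 4 of the 10 had groups that did not overlap, 2 higher and 2 lower, against 31.7% of all RNAs tested (32 of 101), 16.8% higher and 14.9% lower. At an unadjusted edgeR p under 0.05 there were 5 of the 10, SNORD83A, SNORD83B and SNORD94 above 0 and SNORD17 and SNORD22 below. The background of such values was 15.8% higher and 11.9% lower. With the block, 3 of the 10 were called, SNORD83A, SNORD83B and SNORD17, and 18 of 101 overall. With the adaptor in the model none of the 101 RNAs was called (edgeR, 14 higher and 6 lower at an unadjusted p under 0.05), and 2 of the 10 were under an unadjusted 0.05.

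The choice of scaling set how many of the 10 appeared to rise. Scaling by library totals moved the median log2 change of all RNAs from 0.08 to 0.63, and that of the 10 from 0.33 to 0.90. Relative to that shift the order of the 10 at its ends stayed: SNORD83A and SNORD83B were highest and SNORD17 lowest under both scalings. With library totals 4 of the 10 were called, all higher (SNORD83A, SNORD83B, SNORD94 and SNORD33), along with 23 of 101 RNAs overall.

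**Figure D3:**
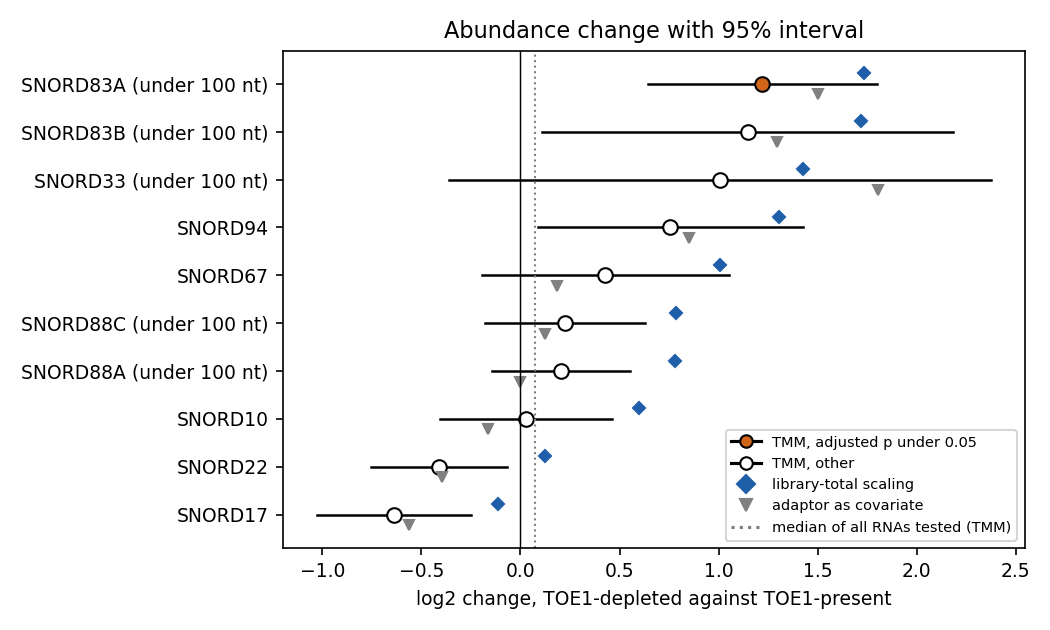
Log2 change of each of the 10 snoRNAs, TOE1-depleted against TOE1-present (x axis), with TMM scaling and 95% interval (circles, filled where the edgeR adjusted p is under 0.05), with library-total scaling (diamonds) and with the adaptor as a covariate (triangles). The dotted line is the median of all RNAs tested, 0.08. SNORD83A is the 1 filled circle, at 1.22, and SNORD17 is lowest, at −0.64.

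Length moved with these values. The 5 snoRNAs annotated under 100 nt, below the lower cut of the gel, are SNORD83A, SNORD83B, SNORD88A, SNORD88C and SNORD33. All 5 had log2 changes above 0, from 0.20 to 1.22 with a median of 1.01, though SNORD88A was below 0 with the adaptor in the model. The longest, SNORD17, had the lowest value. Over all 90 tested RNAs with a single annotated length, 6 of 8 under 100 nt, 43 of 60 from 100 to 150 nt and 4 of 22 over 150 nt were above 0, with median log2 changes of 0.21, 0.15 and −0.38. Outside the 10, 1 of 3 RNAs under 100 nt was above 0. The part of length, or of the gel cut, in the changes was not tested.

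As a group, the 10 took 1.67%, 2.35% and 2.06% of the reads of the TOE1-present libraries and 2.20%, 3.09% and 3.71% of the TOE1-depleted ones. The means were 2.03% ± 0.34 and 3.002% ± 0.76 (SD, n = 3 per group), with overlap (2-sided exact permutation test, p = 0.2, where 3 against 3 cannot go below 0.1). Of reads outside the 7SL, 7SK, RNase MRP and U2 families, the share was 6.29% ± 0.30 and 8.35% ± 1.54, without overlap (2-sided exact permutation test, n = 3 per group, p = 0.1). Of snoRNA and scaRNA reads it was 11.96% ± 0.63 and 13.04% ± 0.87 (2-sided exact permutation test, n = 3 per group, p = 0.2). H/ACA snoRNAs, the other main snoRNA class, went from 8.97% ± 1.18 to 13.7% ± 3.04 of all reads (2-sided exact permutation test, n = 3 per group, p = 0.1).

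The remaining C/D snoRNAs had too few reads for a comparison in most cases. Of the other 9, 3 passed the filter on low counts, SNORD55, SNORD23 and SNORD46, and none was called by edgeR. Their log2 changes were −0.27, 0.09 and 1.30, and 1 of the 3, SNORD46, had an unadjusted edgeR p under 0.05 (edgeR adjusted p = 0.124).

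The second comparison asked whether the 3′ ends of the 10 moved when TOE1 was depleted. None passed the threshold, by the genome-templated end or by the total end with its untemplated tail. The table gives 1 value per condition, not per library, so each difference is printed with a 95% interval recovered from the deposited difference and p. Over all RNAs 2.16% were called for the genome-templated end (3 of 139) and 2.16% for the total end. At an unadjusted p under 0.05 there were 0 of the 10 for either, against 12.9% and 7.91% of all RNAs, and limma's moderated test also called 0 of the 10.

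Interval widths did not follow read number, and the narrowest was that of SNORD22. In the authors' deposited table, the genome-templated end of SNORD10 differed by −0.26 nt (95% interval −0.90 to 0.38) and that of SNORD17 by −0.47 nt (−1.04 to 0.11). The same authors' deposited table has SNORD22 at −0.081 nt (−0.43 to 0.26), SNORD88A at 0.077 nt (−0.51 to 0.67) and SNORD67 at −0.081 nt (−0.67 to 0.51). For these 5 RNAs the intervals leave room for a downstream shift of at most 0.67 nt. For SNORD94 the authors' deposited table gives 0.063 nt (−0.73 to 0.86) and for SNORD88C −0.56 nt (−1.67 to 0.55).

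The remaining 3 were measured far less precisely. In the authors' deposited table, SNORD83A differed by −0.46 nt (−3.88 to 2.97), SNORD83B by 0.20 nt (−1.45 to 1.85) and SNORD33 by −1.65 nt (−4.15 to 0.85). SNORD83A and SNORD33 are the 2 RNAs whose mean end in TOE1-present cells lay more than 2 nt downstream of their median. Of the 10 genome-templated differences 7 were below 0, that is upstream, with a median of −0.17 nt, against 61.9% of all RNAs and a median of −0.10 nt.

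With the tail counted, the values of the RPL3 pair lay on opposite sides of 0. In the authors' deposited table, the total end of SNORD83A differed by −1.41 nt (−5.54 to 2.71) and that of SNORD83B by 1.39 nt (−1.72 to 4.49), both intervals including 0. The authors' deposited table has SNORD33 at −1.45 nt (−3.96 to 1.06), SNORD17 at −0.63 nt (−1.50 to 0.23) and SNORD10 at −0.55 nt (−1.13 to 0.026). The other 5 lay between −0.23 nt (SNORD94) and 0.30 nt (SNORD67). Of the 10, 7 were below 0, against 61.2% of all RNAs. The authors' deposited table also has a Kolmogorov-Smirnov p, headed as a median. That test treats reads as replicates, and how libraries were combined in it is not given in the sources used here. After adjustment this Kolmogorov-Smirnov p passed for 2 of the 10 genome-templated ends, SNORD10 (adjusted p = 0.00124) and SNORD17 (adjusted p = 0.00617). It passed for 13 RNAs in all.

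**Figure D4:**
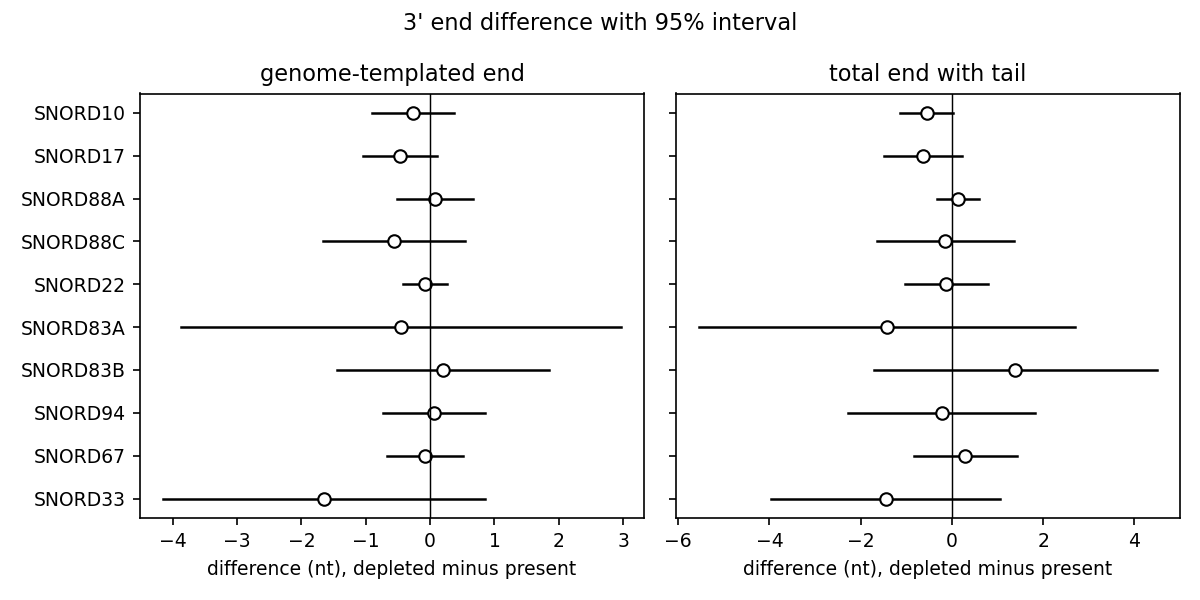
Difference of the 3′ end in nt, TOE1-depleted minus TOE1-present, for the genome-templated end (left) and the total end with tail (right) of the 10 snoRNAs. Circles are the authors' deposited differences and lines the recovered 95% intervals. Every interval crosses 0, and those of SNORD83A and SNORD33 are the widest on the left, at −3.88 to 2.97 and −4.15 to 0.85 nt.

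The third comparison was of untemplated tails, bases at the 3′ end that the genome does not encode. Oligoadenylation marks RNAs for trimming or decay, and TOE1 removes such tails from small nuclear RNAs. By the authors' deposited table, A tails (1 or more A) were on a smaller share of reads in TOE1-depleted cells for 8 of the 10, as it was for 77.3% of all RNAs (99 of 128). None of the 10 passed after adjustment, the background of calls being 0.0%. At an unadjusted p under 0.05 there was 1 of the 10, SNORD83A, against 21.1% of all RNAs, and limma's moderated test called 0.

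SNORD83A went from 35.3% to 10.2% of reads with an A tail in the authors' deposited table (difference −25.0 percentage points, 95% interval −42.96 to −7.07, adjusted p = 0.214). It was the most A-tailed of the 10 with TOE1 and lay among the rest without it. Its partner SNORD83B, which ends in the same 20 nt, stood at 11.7% and 12.2% in the authors' deposited table (difference 0.56 percentage points, −14.9 to 16.01). The difference between the partners was not tested. SNORD33 went from 16.6% to 2.50% (−28.9 to 0.72 percentage points) in the authors' deposited table.

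The other 7 differed by less than SNORD83A and SNORD33. The authors' deposited table has SNORD10 at 13.9% and 6.11%, SNORD17 at 13.9% and 6.07%, and SNORD88A at 18.3% and 9.42%, all 3 intervals crossing 0. SNORD88C stood at 14.7% and 11.2%, SNORD67 at 16.4% and 9.40%, SNORD22 at 8.40% and 4.50% and SNORD94 at 3.70% and 4.25% in the authors' deposited table. The medians of the 10 were 14.3% and 7.76%, and those of all RNAs 21.98% and 11.1%.

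**Figure D5:**
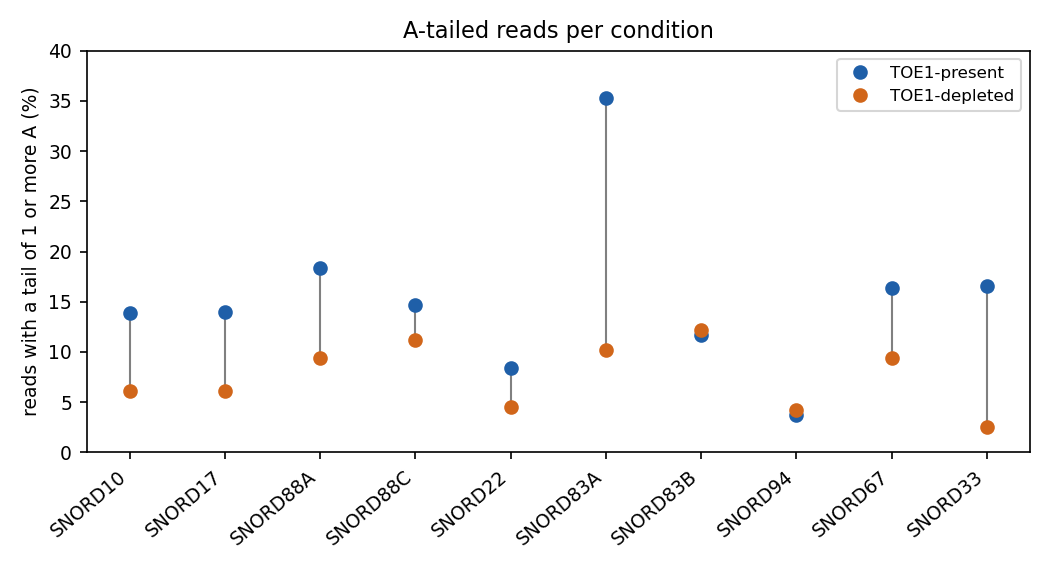
Share of reads with a tail of 1 or more A (y axis, %) in TOE1-present and TOE1-depleted cells for each of the 10 snoRNAs, as the authors' table gives them per condition, with no error bars. SNORD83A falls from the highest point, 35.3%, to 10.2%, and SNORD83B and SNORD94 are the 2 that do not lie lower without TOE1.

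Longer A tails were rare. Tails of 3 or more A were listed at 0 in TOE1-present cells for all 10, and in TOE1-depleted cells they were listed above 0 for 5, from 0.179% (SNORD17) to 1.12% (SNORD94) in the authors' deposited table. None of these passed (adjusted p of 0.526 and above). For SNORD17, SNORD88C, SNORD83B and SNORD67 the deposited unadjusted p was 0.374, the value that arises when 1 library alone is above 0. SNORD94 had 24, 13 and 9 reads in the TOE1-present libraries and 54, 24 and 66 in the TOE1-depleted ones. Shares this small thus rest on very few reads, so whether such tails were gained cannot be told from the listing at 0 with TOE1. Among all 73 RNAs with a deposited p for this share, 33 differences were above 0 and 39 below. U tails of 1 or more bases were listed for 4 of the 10, at 0.855% or less of reads.

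Counted as bases per read, the tails held all 4 bases. In the authors' deposited table SNORD10 had fewer A bases without TOE1 (0.394 and 0.228 per read, unadjusted p = 0.0120, adjusted p = 0.334) and G bases (0.233 and 0.160 per read, unadjusted p = 0.00410, adjusted p = 0.546). Its U bases were also fewer (0.144 and 0.101 per read, unadjusted p = 0.0404, adjusted p = 0.503). None of the 3 passed after adjustment. U bases stood higher without TOE1 on SNORD88C (0.0189 to 0.117 per read, unadjusted p = 0.00498, adjusted p = 0.316) and SNORD33 (0.0238 to 0.120 per read, unadjusted p = 0.0334, adjusted p = 0.503) in the authors' deposited table. After adjustment 0.787% of all RNAs were called for U bases and 0.0% for A or G bases. At an unadjusted p under 0.05 the U bases of 8.66% of all RNAs, the A bases of 12.4% and the G bases of 6.02% differed. In SNORD83B the A, U, C and G bases of the authors' deposited table all stood higher without TOE1, at 0.554, 0.232, 0.206 and 0.448 per read against 0.166, 0.0119, 0.0238 and 0.0476. In SNORD83A all 4 stood lower, with A bases at 0.660 and 0.248 per read in the authors' deposited table. The lowest deposited unadjusted p was 0.0721 for SNORD83B (C bases) and 0.0641 for SNORD83A (G bases). The difference between these partners was not tested. Tails and ends have no value per library, so the adaptor and the depletion cannot be told apart for them.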

How the data were processed

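Ends of newly made small RNAs were read in 3 libraries with TOE1 and 3 without it. Per the submitters' processing notes, STAR 2.7.8a and hg38 were used. Which annotation the authors took, how multi-mapped reads were counted and whether molecular identifiers were used is not given in the sources used here. Per the file headers, the authors deposited raw read counts per RNA and library, end positions and differences in nt, untemplated bases per read, tail shares as a fraction of reads (printed here as percent), p-values and the Kolmogorov-Smirnov statistic, a score. The planned tests on ends and tails per library could not be run, since the deposited table gives these per condition. In 142 of 142 rows, total minus genome-templated end difference equalled the summed A, U, C and G changes to within 1e-06 nt.

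Counts were tested with edgeR 4.0.16 (TMM, filterByExpr, quasi-likelihood test, 2 groups, no covariate; R 4.3.3), with DESeq2 1.42.0 as an alternative. Deposited p-values were adjusted by Benjamini-Hochberg over all RNAs that had one. Standard errors came from the deposited difference and p, on the assumption of a pooled variance with 4 degrees of freedom where all 6 libraries had reads, and were moderated with limma 3.58.1 as an alternative. The count test was run on simulated data with the same dispersion (relative spread between libraries) for every RNA. The simulation held no replicate or adaptor effect, so it does not cover such effects in these libraries. Of 190 gene identifiers 189 were in GENCODE 44, those of all 10 snoRNAs included.

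Same-numbered libraries deviated from their group means with correlations of 0.912, 0.268 and 0.837 over all 101 tested RNAs. The replicate number was tried as a block in an alternative fit, because the labels do not say whether it marks a shared batch. Against other-numbered TOE1-depleted libraries, TOE1-present replicate 2 reached 0.239 and replicate 3 reached 0.817, while replicate 1 reached −0.844 at most. Replicate 1 thus stood apart from replicates 2 and 3, and the values do not show 3 matched pairs. Without the 7SL, 7SK, RNase MRP and U2 families the same-number correlations were 0.014, −0.048 and 0.109 over 89 RNAs. The pattern thus rests on those families. In both groups, 1 RNase MRP gene model had 0 CPM in replicate 1 and 53750 to 79255 CPM in replicates 2 and 3. Another RNase MRP gene model went the other way. It had 60632 and 59885 CPM in replicate 1 of the groups, and 4202 to 7340 CPM in replicates 2 and 3. Chi-square per degree of freedom between libraries of a group was 88.3 to 241 for pairs with replicate 1, and 13.1 and 12.5 between replicates 2 and 3. The cause of this difference was not tested. TOE1-depleted replicate 1 also carries the adaptor contrast.

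The members, lists, tests and alternatives were chosen with earlier results of these data known. Named were the 10 members, the next-ranked C/D snoRNA, and other C/D snoRNAs by counts; SNORD23 and SNORD46 were named after their values were seen.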

Additional observations from a re-analysis of the deposited data

How the results depend on the processing

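The count of RNAs called for abundance, 8 in the fit reported, was 23 when scaled by library totals, 15 with DESeq2, 18 with the replicate block, 5 with no filter on low counts, 0 with the adaptor as a covariate and 4 without replicate 1 of both groups. Leaving out 1 library at a time gave 0 to 2. Of the 10 snoRNAs, 1 was called as reported, 4 with library totals, 2 with DESeq2, 3 with the replicate block, 2 with TMM factors taken without the large families, 0 with the adaptor, 0 without replicate 1 of both groups and 0 in each fit without a single library. The fits with fewer libraries or a further term have fewer degrees of freedom. Other causes were not tested. Of 130 values of the 10 snoRNAs for abundance, 107 kept direction and side of the threshold, mostly by staying uncalled. SNORD83A, the 1 called as reported, passed in 5 of 13 alternatives.

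The change of SNORD10 reversed to −0.051 with DESeq2, −0.018 with no filter, −0.16 with the adaptor, −0.056 without the large families in the scaling, and with single libraries left out it ran from −0.096 to 0.10, below 0 without TOE1-present replicate 1 (−0.096) or TOE1-depleted replicate 3 (−0.080). SNORD88A reversed to −0.0043 with the adaptor and SNORD22 to 0.12 with library totals. With the total end in place of the genome-templated end, SNORD94 reversed to −0.23 nt and SNORD67 to 0.30 nt; the cause was not tested.

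For ends, the deposited Kolmogorov-Smirnov p, which treats reads as replicates, called 13 RNAs in place of 3 and 2 of the 10 in place of 0. For tails, 0 RNAs were called by tails of 1 or more A and 1 each by tails of 2 or more A, of 3 or more A, and by U bases, none of them among the 10. The summed share of the 10 was 1.48 times as high without TOE1, and 1.33 and 1.09 times with the other denominators. It was 1.31 to 1.68 times as high without single libraries and 1.46 within same-numbered pairs (replicate block). No such test could pass the threshold: exact permutation of 3 against 3 cannot go below 0.1, and fewer libraries or pairs cannot go lower. Ends and tails could not be recomputed without single libraries, since these values are given per condition. With 8 to 28 reads in each TOE1-present library, SNORD33, SNORD83A, SNORD83B, SNORD94 and SNORD67 set the limit of what this depth can show.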
